A study of Mus musculus with 6 samples.

Results

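Cytosolic ribosomal protein genes encode the proteins that, with ribosomal RNA, build the ribosome of the cytoplasm. They were taken here as tested entries with a mean of at least 1 FPKM whose identifiers are all protein-coding RefSeq transcripts of 1 mouse gene with an Rpl, Rps, Rplp or Rpsa symbol. S6 kinase and pseudogene symbols were left out. Of 23290 entries, 78 met this rule, 46 with names of the large subunit and 32 with names of the small subunit. Of these, 71 encode a core protein of the ribosome (42 large, 29 small). The other 7 were the paralogs Rpl7l1, Rpl22l1, Rpl36al and Rps27l, the retrocopies Rpl32l and Rps23rg1, and Rps19bp1, which encodes a binding partner of Rps19.

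The study sequenced total RNA of individually harvested mouse hearts at E10.5 (mid-gestation), on a C57BL/6 background, from 3 control and 3 mutant embryos. Controls, which the labels call wild type, were Nkx2-5+/+,Casz1f/+, and mutants were Nkx2-5Cre/+,Casz1f/f. Both groups therefore carry a floxed allele of Casz1, a zinc finger transcription factor, while Cre, expressed from an Nkx2-5 allele in heart progenitors and their descendants, is in the mutants only. Cells of the heart that never expressed Cre keep Casz1, and loss of Casz1 cannot be told apart from the change at the Nkx2-5 locus. FPKM is a fragment count corrected for library size and for the length of the transcript, so levels can be compared between genes. Every FPKM, log2 fold change (mutant over control), p and q given here is from the authors' deposited table, which holds 1 pooled value per genotype and none per heart, so the spread between hearts and the depth of each library are unknown. The standard error (SE) is that implied by the deposited test statistic, and a gene was called at a deposited q under 0.05. Because whole hearts were sequenced, fewer cells of a type and less RNA per cell cannot be told apart.

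The ribosome is made of a small subunit, which reads the messenger RNA, and a large subunit, which joins amino acids. Its proteins are made in near-equal amounts from single-copy genes, and their messenger RNAs share a pyrimidine-rich start, the TOP sequence, through which mTOR signalling controls their translation. Mouse genomes also hold many processed copies of these genes, most of them silent, and human mutations in some of the genes cause Diamond-Blackfan anaemia.

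In the authors' deposited table the targeted gene, Casz1, was at 6.61 FPKM in the controls and 4.68 FPKM in the mutants (log2 -0.50, SE 0.306, unadjusted p = 0.104). Nkx2-5, whose locus carries Cre in the mutants, read 143.0 and 82.9 FPKM (unadjusted p = 0.00755, q = 0.536 in the authors' deposited table). Heart muscle markers were abundant in both genotypes, with Myl7 at 5080 and 7496 FPKM and Myl2 at 5549 and 3942 FPKM. Of 15 tested, 4 were higher and 11 lower in mutant hearts (median log2 -0.11), and 0 were called. Of 9 tested foregut and epithelial markers 6 were called higher. The summed level of the 5 with at least 1 FPKM was 43.0 FPKM in the controls and 107 FPKM in the mutants, most of it from the keratin gene Krt8 (39.7 and 91.5 FPKM). Of the foregut regulators, Shh (0.166 and 1.28 FPKM, log2 2.95) and Foxa1 (0.188 and 0.956 FPKM, log2 2.34) were among the called genes. Foxa2 (0.182 and 0.648 FPKM) and Nkx2-1 (0.186 and 1.15 FPKM) were higher in mutant hearts without being called. Of 8 tested macrophage markers 1 was called, Lyz2, at 16.9 and 1.91 FPKM. C1qb, next in level, read 1.83 and 1.58 FPKM. The log2 fold changes of the macrophage markers other than Lyz2 ran from -0.41 (C1qc) to 0.32 (Fcgr1). Of 8 endothelial markers 0 were called and 8 were below 0 (median log2 -0.17). The 8 tested erythroid markers summed to 828 and 725 FPKM, a sum led by Hbb-b2 (459.9 and 329.5 FPKM), and 0 were called. Of these 8 markers 6 were higher in mutant hearts, with a median log2 fold change of 0.12. Of 8 tested hepatic markers 0 were called, with Afp the most abundant at 35.7 and 27.8 FPKM. The part of these other cell types in the ribosomal protein values was not tested.

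In the pooled values most ribosomal protein transcripts read slightly higher in mutant hearts, by a small margin, and the authors' test called none of the genes. Of the 78 genes, 75 had a higher FPKM in mutant than in control hearts and 3 a lower one, namely Rpl32l, Rpl29 and Rpl39. The median log2 fold change was 0.11, a fold of 1.08. Over all 11998 tested entries with a mean of at least 1 FPKM the median was -0.02, and 44.3% lay above 0. At q under 0.05, 0 of 78 were called in the authors' deposited table, where 0.422% of all tested entries were called (0.305% higher and 0.117% lower). At an unadjusted p under 0.05 there was 1 of 78, Rpl32l, against 3.17% of tested entries, and the other 77 genes had p of 0.501 or more. At q under 0.1 there was also 1 of 78, Rpl32l, against 0.546% of tested entries. With the authors' test statistics centred and divided by their robust SD across genes, Rpl32l passed alone after adjustment (background 7.13%). Rpl32l and Rpl38 passed unadjusted on that scale (background 14.0%).

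**Figure D1:**
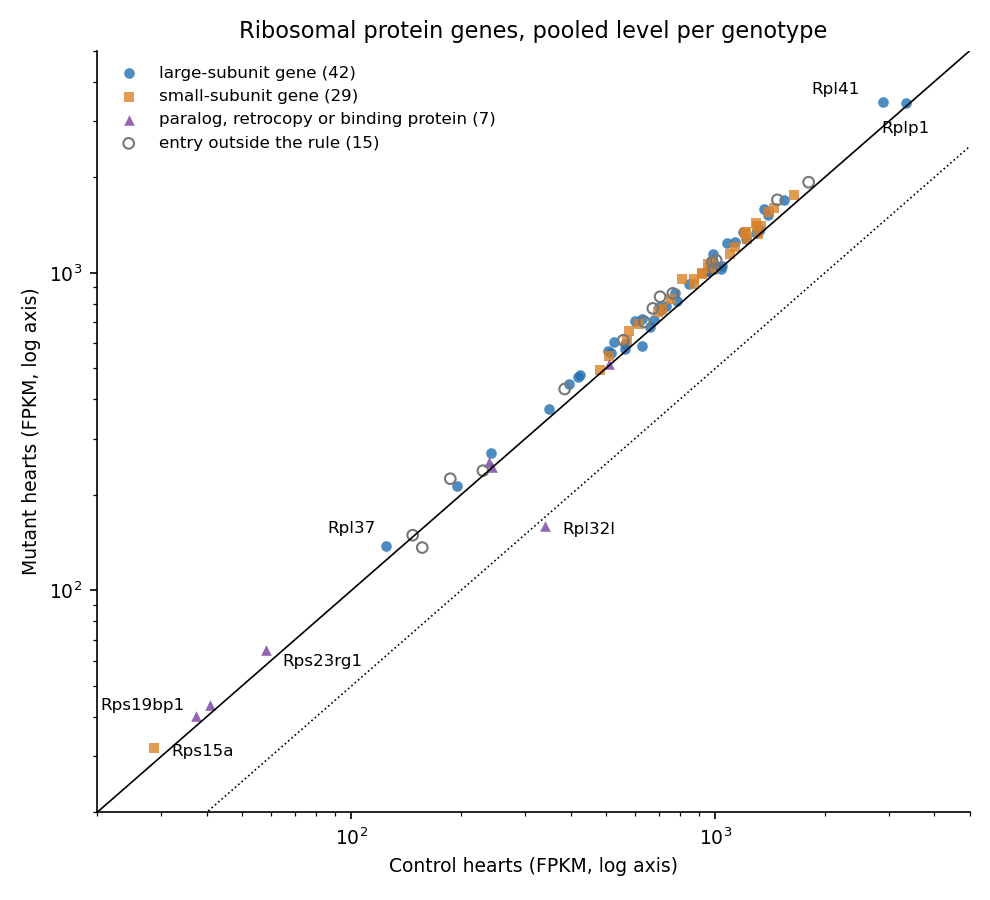
Pooled FPKM of each gene in mutant hearts (vertical, log axis) against control hearts (horizontal, log axis), 1 point per gene. The solid line marks equal levels and the dotted line a 2-fold lower level in mutant hearts. Nearly all points lie just above the solid line, from Rps15a at 28.7 and 31.9 FPKM to Rplp1 at 3345 and 3414 FPKM, while Rpl32l lies below the dotted line.

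The 71 core genes formed a narrow group. Their log2 fold changes ran from -0.10 (Rpl29) to 0.26 (Rpl41), with a median of 0.12, quartiles of 0.08 and 0.16 and an SD across genes of 0.063. The implied SE of a single gene was much wider, with a median of 0.359. Of the 71 genes 69 were above 0, and 68 (95.8%) lay between 0 and 0.25. Among 736 other tested entries with a mean of at least 100 FPKM the median was 0.04, 63.2% lay above 0 (66.2% when the ribosomal protein genes of that level are counted) and 58.7% lay between 0 and 0.25. Among 212 other entries of at least 300 FPKM the median was 0.05 and 64.2% lay above 0. Genes of the ribosome share libraries and scaling and are not replicates, so these counts describe the pooled values and are no test.

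**Figure D2:**
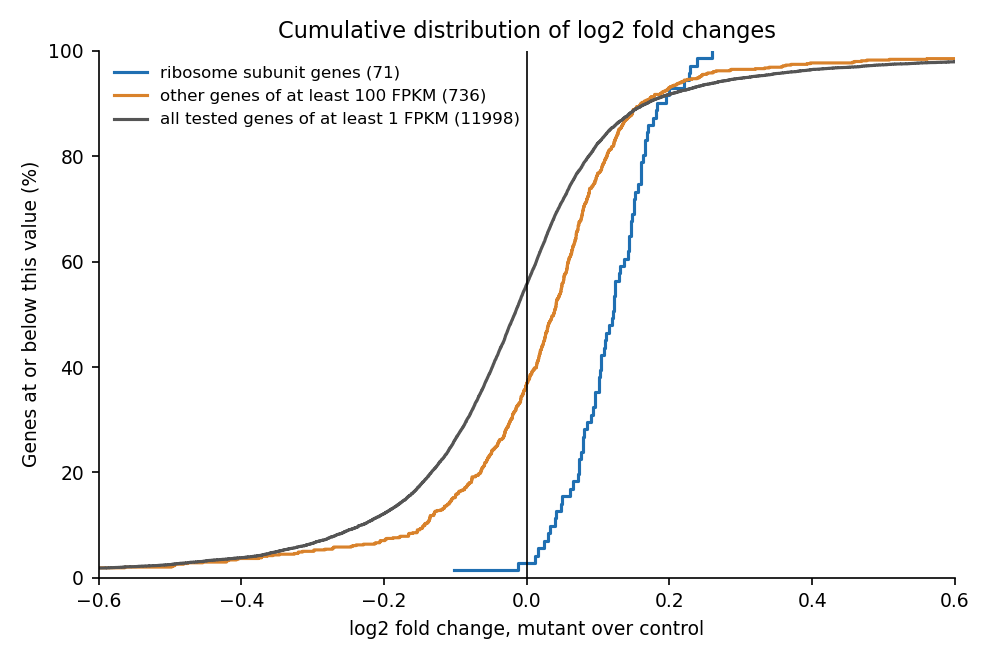
Cumulative share of genes (vertical, percent) at or below each log2 fold change (horizontal, mutant over control) for 71 core genes, 736 other entries of at least 100 FPKM and 11998 entries of at least 1 FPKM. The line of the core genes climbs almost wholly between 0 and 0.25, to the right of the other lines at their medians of 0.04 and -0.02.

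The summed FPKM of the 78 genes was 67924 in the controls and 73357 in the mutants. This was 12.99% of the FPKM of all tested entries in control and 13.72% in mutant hearts. Untested entries are left out of this total and of the column sums, among them the heart muscle genes Actc1, Myh6 and Myh7, the globin genes Hba-x, Hbb-bh1 and Hbb-y, and Eef1a1. The column sums themselves differed by 0.03 on the log2 scale. After division by the column sum 69 of 78 genes were still higher in mutant hearts and the median was 0.08. The genes that then lay below 0 were Rpl4, Rpl22l1, Rpl27, Rpl29, Rpl32l, Rpl36al, Rpl39, Rplp1 and Rps18. By level, the median log2 fold change was 0.15 for the 4 core genes under 300 FPKM, 0.12 for 35 genes between 300 and 1000 FPKM and 0.11 for 32 genes of at least 1000 FPKM.

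Large-subunit genes had a median log2 fold change of 0.12, and 40 of 42 core genes were higher in mutant hearts. Rpl41, which encodes a very short basic peptide of the subunit interface, had the largest difference, from 2882 FPKM (control) to 3451 FPKM (mutant, log2 0.26, SE 0.422, 95% interval -0.57 to 1.09, p = 0.538 in the authors' deposited table). Rpl17, a protein near the exit of the peptide tunnel, read 602 and 705 FPKM (log2 0.23). Rpl32, another core protein of this subunit, read 1358 and 1589 FPKM (log2 0.23). The intervals of these genes spanned 0.

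Rpl38, whose product is known in mouse embryos for its role in translating Hox messenger RNAs, read 985 and 1148 FPKM. This is a log2 difference of 0.22 (SE 0.328, 95% interval -0.42 to 0.86, p = 0.501 in the authors' deposited table). This was the lowest p of any core gene. At the other end, Rpl29, a basic protein of the same subunit, had 630 FPKM in the controls and 587 FPKM in the mutants (log2 -0.10, SE 0.329, 95% interval -0.75 to 0.54). Rpl39, a small protein of the peptide tunnel, read 1039 and 1030 FPKM (log2 -0.01), and Rpl4, which also lines the tunnel, read 1044 and 1052 FPKM (log2 0.01). Rpl27 read 564 and 574 FPKM (log2 0.02). With implied errors above 0.32 in each, none of these genes could be placed above or below another.

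The stalk of the large subunit, formed by Rplp0, Rplp1 and Rplp2, recruits the elongation factors. Rplp1 was the most abundant of the 78 genes, at 3345 and 3414 FPKM, with a log2 fold change of 0.03 (SE 0.427). Rplp0, the base of the stalk, read 1318 and 1356 FPKM (log2 0.04). Rplp2, the partner of Rplp1, read 630 and 714 FPKM (log2 0.18, SE 0.325). The 3 genes thus ranged from near equal levels to a level 1.13-fold higher in mutant hearts and their implied intervals overlapped.

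Small-subunit genes had the same median as large-subunit genes to within 0.01, at 0.12, and 29 of 29 core genes were higher in mutant hearts. Their log2 fold changes ran from 0.02 (Rps18, a protein of the subunit head, at 1306 and 1321 FPKM) to 0.24 (Rps27a). Rps2, which lies at the entry of the messenger RNA channel, was the most abundant of these 29 at 1641 and 1754 FPKM (log2 0.10). Rps20, also a protein of the head, read 1448 and 1599 FPKM (log2 0.14). In the large subunit Rpl8, a protein near the catalytic centre, was of similar abundance, at 1543 and 1696 FPKM (log2 0.14). Rps6, the substrate of S6 kinase downstream of mTOR, read 695 and 755 FPKM (log2 0.12, SE 0.412). Rpsa, also known as the laminin receptor, read 872 and 954 FPKM (log2 0.13, SE 0.490).

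Some ribosomal proteins are made as fusions with ubiquitin or a ubiquitin-like protein and are cut apart afterwards. Rps27a, a ubiquitin fusion, had 809 FPKM in the controls and 954 FPKM in the mutants (log2 0.24, SE 0.391, p = 0.540 in the authors' deposited table). Fau, which fuses a ubiquitin-like protein to a small-subunit protein and falls outside the naming rule, read 673 and 772 FPKM (log2 0.20). Rack1, a signalling scaffold on the small subunit, read 989 and 1029 FPKM (log2 0.06). All 3 were higher in mutant hearts and 0 were called.

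**Figure D3:**
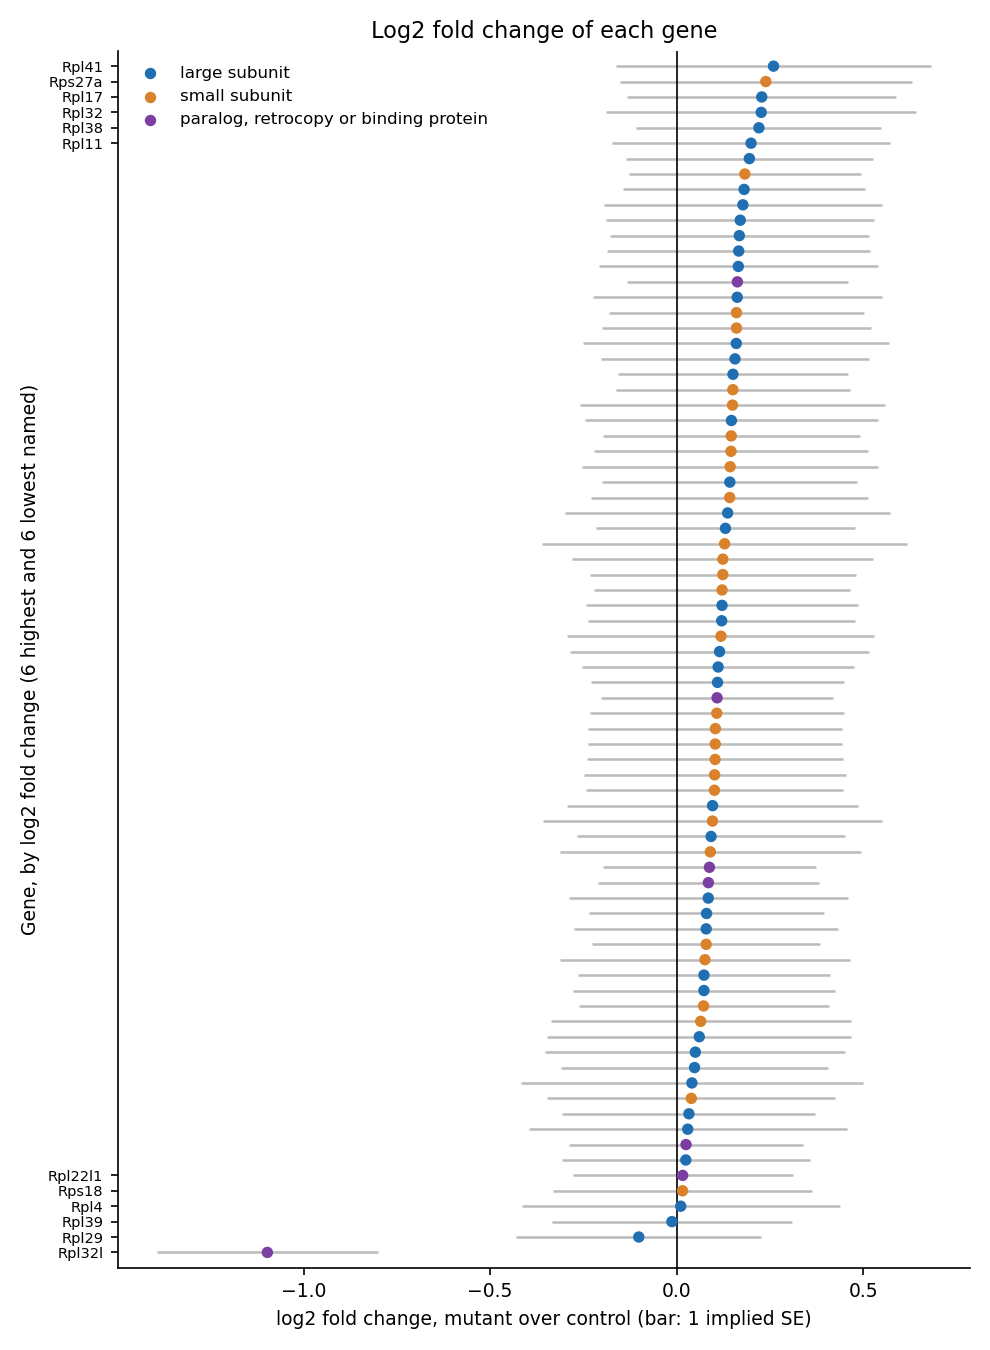
Log2 fold change (horizontal, mutant over control) of each of the 78 genes (vertical, sorted, with names for the 6 highest and 6 lowest), with bars of 1 implied SE on each side. All points except Rpl32l at -1.10 lie between -0.10 and 0.26, and except for Rpl32l every bar crosses 0.

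Other core proteins were missed by the rule because of how their entries are named. Rpl22 (147 and 149 FPKM) and Rps27 (981 and 1081 FPKM) carry noncoding identifiers beside their coding ones. Rpl30 (764 and 861 FPKM), Rpl34 (1005 and 1095 FPKM) and Rpl13a (1480 and 1697 FPKM) were joined with other genes in 1 entry. The deposited statistic of the Rpl13a entry implied an SE of 8.23 for a log2 fold change of 0.20, so its error was not comparable with that of other genes. Rps15 has no value because the authors' deposited table marks its locus with the status HIDATA, given where too many fragments were present. With the 8 core proteins that have a value but fall outside the rule added, 77 of 79 core genes were higher in mutant hearts, with a median log2 fold change of 0.12.

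Diamond-Blackfan anaemia is a failure of red cell production caused by loss of 1 copy of a ribosomal protein gene. Of a chosen list of 15 of its genes, which need not be complete, 14 were among the 78. All 14 were higher in mutant hearts, with a median of 0.10, and 0 were called, beside 69 of 71 core genes higher. Rps19, the gene most often mutated in patients, read 713 and 768 FPKM (log2 0.11, SE 0.341). Rpl11 (log2 0.20) and Rpl5 (log2 0.16), which bind the 5S ribosomal RNA and can inhibit the p53 regulator Mdm2, read 1078 and 1238 FPKM and 419 and 468 FPKM. In the small subunit, Rps24, Rps26, Rps10, Rps7, Rps28 and Rps29 had log2 fold changes of 0.12, 0.10, 0.10, 0.10, 0.08 and 0.07. In the large subunit, Rpl35a had 0.12, Rpl15 had 0.09, Rpl26 had 0.05 and Rpl27, given above, the lowest of the list. Their log2 fold changes lay inside the range of the other core genes.

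Rpl32l was the exception among the 78 genes. In the authors' deposited table it had 341 FPKM in the controls and 159 FPKM in the mutants (log2 -1.10, SE 0.297, 95% interval -1.68 to -0.52, unadjusted p = 0.000217, q = 0.0506). Its q lay just above the threshold of 0.05, and adjustment over entries of at least 1 FPKM gave 0.0606. Rpl32l is an intronless copy of Rpl32 on chromosome 10, from 20208439 to 20209030 on the plus strand in the RefSeq annotation of GRCm38.p6, which lists it as protein coding. GENCODE places it from 20208490 to 20208888 and calls it a processed pseudogene. It lies within the gene Map7, a microtubule-associated protein gene on the same strand that runs from 20148471 to 20281590, and overlaps 0 of its exons. Map7 itself was near the lower limit, at 1.30 and 0.919 FPKM (log2 -0.50, p = 0.703 in the authors' deposited table).

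The copy and its parent gene, Rpl32 on chromosome 6 from 115805514 to 115808743, have similar transcripts. Over 398 aligned transcript bases they differed at 10, an identity of 97.5%, and 19.4% of the 50-base stretches of the copy occurred unchanged in Rpl32. The rest of its stretches hold at least 1 difference from Rpl32. Counting all other GENCODE genes, 35.4% of the stretches of the copy occurred in transcripts of 9 genes, of which Rpl32 shared the most. The following 60 bases of the GENCODE transcripts are shown because they hold 4 of those differences, in capitals, and so are among the places where a read can tell the genes apart. They lie in the coding sequence of Rpl32, bases 306 to 365 of its transcript, and at bases 245 to 304 of the copy.
Rpl32: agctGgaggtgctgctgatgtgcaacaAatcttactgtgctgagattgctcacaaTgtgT
Rpl32l: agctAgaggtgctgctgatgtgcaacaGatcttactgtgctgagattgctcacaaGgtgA
The summed FPKM of Rpl32 and Rpl32l was 1699 in control and 1749 in mutant hearts (log2 0.04). The ratio of copy to gene was 0.251 in control and 0.10 in mutant hearts. Whether reads of one were assigned to the other, or came from further genes that share stretches, was not tested, since no read-level file was used here.

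Other copies lay closer to their genes in log2 fold change. Rps15a, the lowest core gene at 28.7 and 31.9 FPKM, has the processed copies Rps15a-ps4 (230 and 238 FPKM, 97.7% identical) and Rps15a-ps6 (187 and 225 FPKM, 98.7% identical), so the copies read several times the level of the gene. Rpl37, next lowest of the core genes at 124 and 138 FPKM, has the copy Rpl37rt, with 1 mismatch in 294 aligned bases, whose entry is joined with Acads and read 559 and 613 FPKM. Rpl31 read 242 and 271 FPKM beside 705 and 840 FPKM for Rpl31-ps12 (98.9% identical). Rpl21, another core gene of the large subunit with a low level, read 195 and 213 FPKM. Rps19-ps3 read 385 and 430 FPKM beside its gene. Rps23rg1, a retrocopy of Rps23, read 58.1 and 65.1 FPKM, against 920 and 989 FPKM for Rps23. Levels of genes with such copies are uncertain, because the authors' counting could divide the reads among them.

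**Figure D4:**
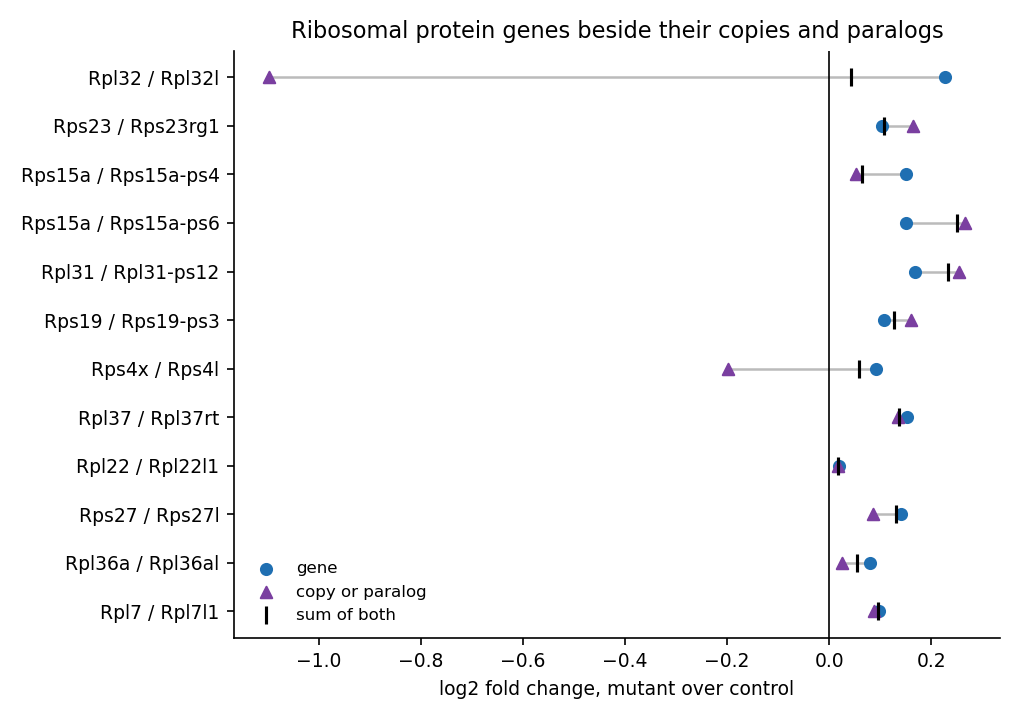
Log2 fold change (horizontal, mutant over control) of ribosomal protein genes (circles), of their copies or paralogs (triangles) and of the summed FPKM of both (vertical ticks), 1 pair per line, for pairs with at least 1 FPKM in both genes; the Rpl37rt value is that of its joint entry with Acads. Rpl32l at -1.10 lies far from Rpl32 at 0.23, with the sum at 0.04, and the copy Rps4l at -0.20 is the only other plotted point below 0.

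Paralogs arose by duplication and encode related proteins, and 0 of those tested were called. Rpl22l1 read 243 and 245 FPKM, above Rpl22 in both genotypes (log2 0.02 in each gene). Rpl36al read 509 and 518 FPKM (log2 0.03), Rps27l read 239 and 253 FPKM (log2 0.09) and Rpl7l1 read 40.9 and 43.5 FPKM (log2 0.09). Rps4l, which carries only a noncoding identifier, read 157 and 136 FPKM (log2 -0.20, SE 0.398) beside 1131 and 1204 FPKM for the X-linked Rps4x. They are 81.4% identical over their aligned bases. Rpl3l, the muscle paralog of Rpl3, read 0.674 and 0.383 FPKM (log2 -0.82, SE 0.843) and Rpl39l, known from testis, 0.204 and 0.195 FPKM (log2 -0.06), both under the limit of 1 FPKM. Rpl10l, also known from testis, was listed at 0 in both genotypes. Rps19bp1, the binding partner of Rps19, read 37.4 and 40.3 FPKM (log2 0.11).

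Sharing of sequence with other genes was common. Of the 50-base stretches of a core transcript, a median of 60% also occurred in transcripts of another GENCODE gene, and the highest share was 92.1%, in Rpl10. Rpl7a shared stretches with 123 other genes, the most of any. The 26 core genes with under 50% of their stretches shared had a median log2 fold change of 0.14, with 25 of 26 higher in mutant hearts. The 45 genes with more sharing had a median of 0.11, with 44 of 45 higher. Core genes lay on 19 chromosomes, with 13 on chromosome 7. On chromosome 4, which holds Casz1, Rpl11 was the nearest of the 71 core genes, at 12.8 Mb. Rpl22, outside the rule, lies nearer to Casz1, from 152324436 to 152334082, and had a log2 fold change of 0.02. Chromosome 17 holds 6 core genes and Nkx2-5, which runs from 26838664 to 26844988. Core genes also lie close to that locus. Rps10, the nearest, runs from 27630415 to 27635244 (log2 0.10), and Rpl10a from 28328471 to 28331033 (log2 0.11).

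RefSeq promoter sequences (GRCm38.p6), from 250 bases before the listed start to 50 after it, were matched for 52 of 71 core genes. The windows below hold the 15 bases before the listed start and the 15 from it on, with the longest pyrimidine run of at least 5 bases in capitals. Rps6, Rpl15, Rps10 and Rpl38 are shown because a C stands at the listed start with at least 4 pyrimidines after it, as in a TOP start. Rpl41, Rpl4 and Rpl39 are shown as genes from both ends of the log2 fold changes, and Rpl32l as the exception.
Rps6, chr4:86857353-86857382, minus strand: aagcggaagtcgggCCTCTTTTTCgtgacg
Rpl15, chr14:18270972-18271001, minus strand: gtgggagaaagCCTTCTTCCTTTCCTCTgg
Rps10, chr17:27635230-27635259, minus strand: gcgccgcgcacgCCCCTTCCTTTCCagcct
Rpl38, chr11:114668565-114668594, plus strand: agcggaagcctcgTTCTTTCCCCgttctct
Rpl4, chr9:64173372-64173401, plus strand: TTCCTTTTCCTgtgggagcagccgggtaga
Rpl39, chrX:37085208-37085237, minus strand: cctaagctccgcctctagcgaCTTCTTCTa
Rpl41, chr10:128549154-128549183, minus strand: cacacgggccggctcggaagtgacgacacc
Rpl32l, chr10:20208424-20208453, plus strand: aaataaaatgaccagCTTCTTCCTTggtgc
The Rpl41 window held no such run, and the start of Rpl32l was pyrimidine-rich like those of several core genes. A listed start can lie some bases from the real one, so the runs are given as descriptions.

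A C at the listed start followed by 4 pyrimidines was found in 11 of 52 core genes (21.2%) and in 2.49% of all 27025 promoters. Where the C could begin anywhere within 10 bases of the start, the shares were 53.8% and 30.8%. A run of at least 8 pyrimidines within 25 bases of the start was found in 24 core genes (46.2%). Of all promoters 19.4% held one, as did 18.6% of the 9203 promoters of other genes with at least 1 FPKM. These 9203, called expressed below, leave out the core genes, while the set of all promoters holds them. TTCCGG, read on both strands and known as a core of ETS factor sites, was in 28 of 52 core promoters (53.8%), in 15.2% of all promoters and in 29.2% of expressed ones. AAGATGGC, known as a core of YY1 sites, was in 2 of 52 (3.85%), in 2.88% of all promoters and in 4.90% of expressed ones. TATAAA, an element bound by the general factor TBP, was in 5 of 52 (9.62%), in 14.2% of all promoters and in 6.77% of expressed ones. Both were read on both strands, and the core share of each lay between the shares of these backgrounds. None of these 3 motifs holds another, and TTCCGG can overlap the edge of a pyrimidine run. Core genes with a run of at least 8 had a median log2 fold change of 0.12 (24 genes) and those with a shorter run 0.11 (28 genes).

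Genes that make, control or sit beside the ribosome showed smaller medians, but these lists were not matched to the core genes by level. The core genes had a median level of 955 FPKM, while mitochondrial ribosomal protein genes ran from 7.92 to 245 FPKM in the controls. As given above, the share of entries above 0 was larger among abundant entries. Of 76 mitochondrial ribosomal protein genes 47 were higher in mutant hearts and 0 were called, with a median log2 fold change of 0.02. The most abundant of them, Mrps21 and Mrpl52, read 245 and 263 FPKM and 237 and 257 FPKM. Of 36 translation factors 25 were higher and 0 were called (median 0.05). Tpt1, a TOP messenger RNA of high abundance, read 1710 and 1861 FPKM (log2 0.12), and the elongation factor Eef2 read 725 and 727 FPKM (log2 0.00). Next in level were Eif5a (log2 0.09), Eef1g (log2 0.16) and Eef1b2 (log2 0.13), so abundant translation factors reached values like those of the core genes. Eef1a2, the muscle and neuron form of elongation factor 1 alpha, read 19.2 and 9.96 FPKM (log2 -0.95, unadjusted p = 0.00247, q = 0.260 in the authors' deposited table).

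Of 59 ribosome assembly factors 46 were higher and 0 were called (median 0.04), with the nucleolar chaperone Npm1 at 543 and 573 FPKM and the RNA methyltransferase Fbl at 113 and 119 FPKM. RNA polymerase I genes, which make ribosomal RNA, had a median of 0.01, with 8 of 14 higher and 0 called. Polr1d, a subunit of it, read 113 and 124 FPKM, and the ribosomal DNA factor Ubtf read 40.3 and 39.5 FPKM. Of 20 genes of mTOR, Myc and TOP control 6 were higher and 0 were called (median -0.03). Cnbp, which binds pyrimidine-rich starts, read 222 and 234 FPKM, and the mTOR target Eif4ebp1 read 156 and 153 FPKM. Of 15 p53 targets and regulators, the response known to follow failed ribosome assembly, 5 were higher and 0 were called (median -0.10). Bax read 85.9 and 88.3 FPKM and Trp53 50.05 and 50.5 FPKM. Perp, a p53 target of cell junctions, read 27.6 and 14.5 FPKM (log2 -0.93, unadjusted p = 0.00160, q = 0.196 in the authors' deposited table). The difference between these lists and the core genes was not tested.

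**Figure D5:**
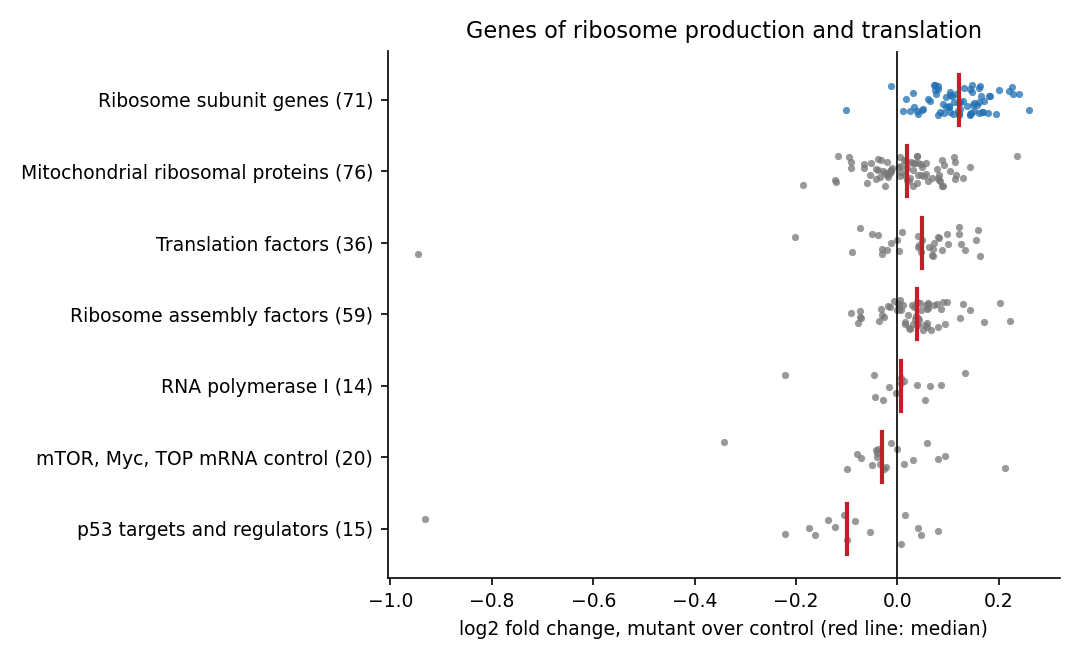
Log2 fold change (horizontal, mutant over control) of the 71 core genes and of 6 lists of related genes, 1 point per tested gene of at least 1 FPKM, with red lines at the medians. The core genes have the highest median, 0.12, the other lists have medians from -0.10 to 0.05, and Eef1a2 and Perp are the 2 points near -0.9.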

How the data were processed

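Tissue and libraries (3 control and 3 mutant hearts, TruSeq adaptors) are as the labels' protocols give them. Reads were handled, per the submitters' processing notes, with Cufflinks 2.1.1 and Cuffdiff (mm10), TopHat2 2.0.8, Bowtie2 2.1.0.0, and also SAMtools 0.1.19.0 and FastQC 0.10.1. The authors deposited 1 Cuffdiff table, which per the file headers holds an FPKM for each gene in each genotype. The scaling of libraries and the dispersion model are not given in the sources used here. The deposited log2 fold change and test statistic (a score of opposite sign), p-values and q-values were used as they stand. The deposited p matched the normal tail of the statistic within 2.82e-06, so the SE was taken as the log2 fold change divided by the statistic, and 95% intervals are normal. No test could be refitted over hearts.

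RefSeq (GRCm38.p6) named 98.8% of entries, by transcript identifier. Shared 50-base stretches and identities were computed from GENCODE M21 transcripts, leaving out overlapping genes. The named genes are those with unadjusted p under 0.05, the 6 highest and 6 lowest by log2 fold change and by FPKM, the paralog and Diamond-Blackfan lists, and the 2 most abundant of each related list, and some of these are not reported here. The ribosomal protein genes, the lists and this rule were chosen with earlier results of these data known. Rps23, Rps4x, Rpl10, Rpl7a, Rpl31, Map7 and the processed copies were named after their values were seen. The adjustment of p-values, the robust SD and the median of a shifted set were tested on simulated log2 fold changes. Their simulated errors had the size of the implied SE. The authors' statistics were narrower than that, with a robust SD of 0.355, so the simulation did not match them there. Python 3.11.15, numpy 2.4.6, pandas 2.3.3, scipy 1.17.1, Biopython 1.88 and matplotlib 3.10.9 were used.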

Additional observations from a re-analysis of the deposited data

How the results depend on the processing

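Leaving out a heart was not possible, since the deposited table pools the hearts of a genotype. No paired analysis was possible because the table holds no column per heart. Of 32 recomputed values 25 stayed close to the reported value and 7 moved, and 0 of the median log2 fold changes changed sign. Close meant within the SD across core genes (0.063) for a median, within 1 percentage point for a share and within a fixed ratio for a count. Counts and shares cannot change sign. All 78 genes passed the filter of 10 FPKM, so the median under that setting could not move. Centring on the median of all entries (-0.02) and division by the column sum (0.03) each shift a median by a constant. Both constants are smaller than 0.063, so these settings could not count as moved either. The limit of 1 percentage point was wider than the difference between the control share (12.99%) and the mutant share (13.72%). The genes called went from 0 to 1 (Rpl32l) at q under 0.1, at q under 0.2 and with the rescaled statistic, and stayed at 0 when adjusted over entries of at least 1 FPKM. Those with an unadjusted p under 0.05 went from 1 to 2 with the rescaled statistic. The median log2 fold change of the 78 genes ranged from 0.08 (FPKM divided by the column sum) to 0.14 (core genes with under 50% of stretches shared) over all alternatives, and was 0.12 without Rpl32l. Of the 26 core genes with little sharing 25 were higher, a smaller count because fewer genes enter. The split by sharing, the value without Rpl32l and the set with 8 added core proteins were chosen after seeing the data. A C followed by 4 pyrimidines that began within 10 bases of the start, instead of at it, was found in 28 genes instead of 11, but also in 30.8% of all promoters instead of 2.49%. A run of 8 within 10 bases was found in 15 genes instead of 24, and in 7.35% of all promoters instead of 19.4%. The implied SE, near 0.36 for a core gene, limits single genes: differences of the size seen here were not detectable gene by gene with the authors' test. The authors' statistics had a robust SD of 0.355 across genes, so this SE was wider than the scatter between genes.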
